A study of Mus musculus with 41 samples.

Results

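A list of 42 mouse genes that respond to type I or type II interferon was followed, gene by gene, through 41 RNA-seq libraries of microglia sorted from the cerebellum. The genes were chosen by symbol, all 42 were present among the 24015 genes of the deposited table, and all 42 passed the filter on low values in every fit. Of these, 5 are interferon-inducible GTPases of the guanylate-binding and immunity-related families (Gbp2, Gbp3, Irgm1, Igtp and Iigp1). They are called the GTPases here and are described apart from the other 37. The other 37 include Mx1 and Mx2, which are GTPases of the dynamin-like kind. The libraries came from wild-type (WT) mice of the balb/c strain and from mice of the strain BALB/cNctr-Npc1m1N/J, called NPC here, which carry a germline mutation of Npc1, the lysosomal cholesterol transporter whose loss causes Niemann-Pick disease type C. Untreated WT and NPC mice aged 1, 3, 6 or 9 weeks make 8 groups of 4 libraries, or 3 for NPC at 9 weeks. A further 5 NPC mice at 9 weeks received PLX5622, an inhibitor of the CSF1 receptor on which microglia depend for survival, and 5 NPC mice of the same age were their controls. No WT mice received PLX5622, and the dose, its length and the zygosity of the mutation are not given in the sources used here. Cells were sorted on CD11b and Tmem119, so a microglial cell without Tmem119 protein would not have been collected, and the mutation is not limited to microglia.

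Type I interferons (interferon-beta and the interferon-alpha family) bind a receptor of Ifnar1 and Ifnar2, whose kinases lead to the assembly of a factor that contains Stat2 and Irf9. This factor, ISGF3, binds interferon-stimulated response elements in the promoters of antiviral genes. Interferon-gamma, the type II interferon, uses another receptor and acts mainly through gamma-activated sites, and it is the stronger inducer of the guanylate-binding proteins and immunity-related GTPases. In the brain, microglia both make and respond to type I interferon, and a raised set of interferon-stimulated genes is a known microglial state in infection, ageing and neurodegeneration.

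Sequencing depth, as the reads recovered from the table, was 23159093 to 40509603 reads per library. The mutated gene was checked first. Npc1 ranged from 2606 to 7386 normalized counts in the 16 WT libraries and from 291 to 787 in the 25 NPC libraries, with no overlap. Microglial markers were abundant in all groups, and the summed count of 8 of them was at least 910784 normalized counts in every library. Here and below a value is a deposited normalized count unless stated otherwise, a change is a difference in log2(normalized count + 1), which understates changes of low genes, and a gene was called changed when its limma adjusted p, two-sided and corrected over all genes of the fit by the Benjamini-Hochberg method, was under 0.05. Oas1a, Ifit3, Ifi27l2a, Ifi204, Slfn8 and the Mx and Oasl genes have close copies in the mouse genome, and since the counting method is not given in the sources used here, their values may be shared with those copies.

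The promoters of the members were read from RefSeq (GRCm38.p6; the deposited counts were made on mm9) as 300 bases from 250 before to 50 after each start site. An entry was matched for 31 of the 42 members. The core of the interferon-stimulated response element was searched on both strands as GAAA, any 2 bases, and GAAA again. It was found in 19 of these 31 members (61.3%), against 3.76% of the 10707 matched genes that were tested in at least 1 fit. The share was 3.99% of all 27025 genes with an entry and, counted per promoter, 3.44% of all 32851 promoters. The gamma-activated site TTCNNNGAA was found in 7 of 31 members (22.6%), against 8.41% of the tested genes. Stretches around the response-element core are printed for 5 members that were higher in NPC microglia at 3, 6 and 9 weeks and for 3 members that were not, since both kinds hold the motif. Capitals mark the bases of a match, and overlapping matches run together.
Ifit1, chr19:34640775-34640823, forward strand: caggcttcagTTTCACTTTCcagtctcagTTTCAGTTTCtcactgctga
Ifit3, chr19:34583363-34583426, forward strand: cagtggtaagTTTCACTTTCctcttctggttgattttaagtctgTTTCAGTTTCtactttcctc
Isg15, chr4:156200865-156200906, reverse strand: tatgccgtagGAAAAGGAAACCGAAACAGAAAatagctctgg
Oas3, chr5:120777715-120777744, reverse strand: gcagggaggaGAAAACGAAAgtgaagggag
Rsad2, chr12:26456553-26456582, reverse strand: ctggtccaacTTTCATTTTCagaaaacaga
Slfn8, chr11:83020839-83020868, reverse strand: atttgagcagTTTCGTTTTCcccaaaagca
Gbp3, chr3:142559989-142560024, forward strand: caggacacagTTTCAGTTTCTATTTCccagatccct
Igtp, chr11:58199512-58199541, forward strand: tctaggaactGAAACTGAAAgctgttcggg
The motif was in 10 of 19 promoters (52.6%) of the members called higher at all of 3, 6 and 9 weeks and in 9 of 12 (75.0%) of the other members. All 4 GTPases with an entry held it (Gbp2, Gbp3, Irgm1 and Igtp), and Igtp also held the gamma-activated site. Isg15 has 3 overlapping matches in 1 run, and Ifit1 and Ifit3 each have 2 separate ones. Irf7, Irf9, Oasl1, Oasl2, Cmpk2, Herc6, Ifi44, Xaf1, Sp100 and Slfn2 had an entry but no match of either motif in the window searched. A match is a description of the letters and not a measured binding site.

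**Figure D1:**
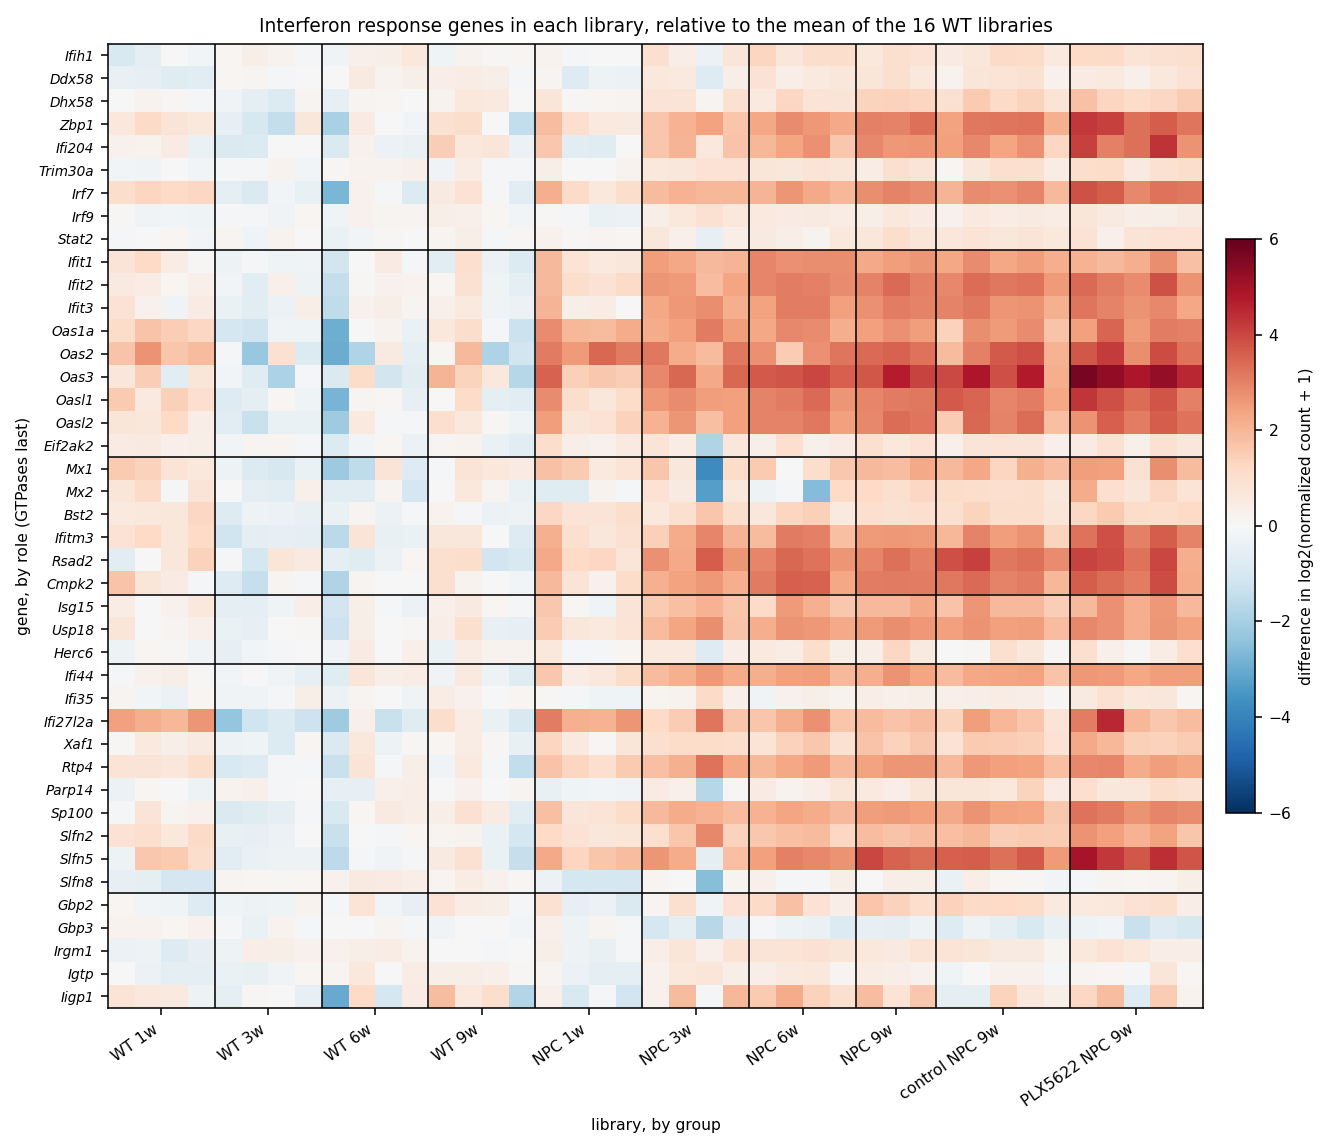
Each row is 1 of the 42 genes, grouped by role with the GTPases at the bottom, and each column is 1 of the 41 libraries. Colour is the difference in log2(normalized count + 1) from the mean of the 16 WT libraries; the NPC libraries from 3 weeks on are red for most rows, while Ddx58, Herc6, Slfn8, Gbp3 and Igtp stay pale or turn blue.

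Members differed widely in their level before any comparison. Per kilobase of exon (GENCODE annotation of GRCm38), the mean normalized count of WT microglia at 9 weeks was highest for Bst2, the tetherin that holds virions at the membrane, at 1118, followed by Ifi35 at 996 and Igtp at 733. It was lowest for Oas3, which makes the oligoadenylates that activate RNase L, at 3.35, and for Iigp1 at 10.8. In NPC microglia of the same age the highest means per kilobase were those of Bst2 (2416), Ifitm3 (2369), Slfn2 (2085) and Ifi27l2a (1975), while Oas3 was still low (30.3).

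Libraries of 1 group also differed among themselves. Over the 37 members other than the 5 GTPases, the median difference from the mean of all WT libraries was taken in each library. It was -0.93 in WT 6w replicate A against -0.04 to 0.19 in the other 3 of its group. In WT 9w replicate D it was -0.42, against -0.01 to 0.60 in the other 3. Among the untreated NPC groups from 3 weeks on these medians were 1.66 to 2.03 at 3 weeks, 1.68 to 2.31 at 6 weeks and 2.18 to 2.504 at 9 weeks, so that each of these 11 libraries lay above all 16 WT libraries. For the 5 GTPases the medians were -0.52 to 0.62 in WT and -0.09 to 0.87 in the same 11 NPC libraries, and the genotypes overlapped.

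At 1 week no member differed between NPC and WT microglia by limma, where 1.45% of all genes tested were called in either direction. Unadjusted limma p was under 0.05 for 6 members (Sp100, Irgm1, Rsad2, Ifit2, Ifi44 and Oas3), beside 1642 of all 14046 genes. On the recovered reads edgeR called 0 members and DESeq2 called 1, Ifi44, beside 372 of all genes by DESeq2. Ifit2, an RNA-binding protein that restrains translation, was 402, 376, 301 and 336 in the 4 WT libraries and 1047, 561, 502 and 599 in the 4 NPC libraries. The Ifit2 groups did not overlap, and the change was 0.88 ± 0.31 (SE; limma adjusted p = 0.189). Irf7, the transcription factor that amplifies interferon production, was 655, 779, 735 and 750.3 in WT and 1459, 691, 495 and 655 in NPC, so that 1 NPC library was high and the other 3 lay within or below the WT range. That library, NPC 1w replicate A, stood apart across the list. Its 37 members other than GTPases had a median of 1.64 on the log2 scale above the mean of the WT libraries, against 0.58 to 0.74 in the other 3 NPC libraries of that age and 0.35 to 0.58 in the 4 WT libraries. With it, the median change of the 42 members was 0.22 and 33 were positive; without it the median was 0.04 and 22 were positive, and no member was called either way.

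From 3 weeks on most members were higher in NPC microglia. Of 42 members, 29 were called higher and 1 lower at 3 weeks, where 14.3% of all genes were called higher and 12.6% lower. At 6 weeks 32 were higher and 0 lower (8.76% and 6.5% of all genes), and at 9 weeks 29 were higher and 0 lower (11.2% and 7.77%). By edgeR and DESeq2 the counts of members called lower at 6 and 9 weeks were 0. The median change over the 42 members was 1.94, 2.09 and 1.80 at 3, 6 and 9 weeks, beside -0.04, -0.02 and 0.03 over all genes. Rescaling each library to the same total moved the median of all genes by -0.14 at 3 weeks and left 28 members called higher. In all, 26 members were called higher at each of these 3 ages, 8 at some of them and 8 at none. The share of all genes called higher at each of these 3 ages was not counted, and it cannot exceed the 8.76% called at 6 weeks. For 17 members every one of the 21 NPC libraries from 3 weeks on, including those of the PLX5622 arm, lay above all 16 WT libraries. The share of all genes that separate these libraries in the same way was not counted, so this number has no background beside it. NPC 3w replicate C stood low for some members and high for others. Since the fit shares 1 estimate of the spread over all groups, this library bears on each age. Without it 33 members were called at 3 weeks (Herc6, Irgm1, Mx1 and Stat2 gained, Ifi35 lost), 36 at 6 weeks (Eif2ak2, Mx1 and Parp14 gained as higher and Gbp3 as lower) and 35 at 9 weeks (Ddx58, Eif2ak2, Gbp2, Herc6, Irf9 and Mx1 gained). Marker lists of cell types differed between the genotypes too. The summed count of 8 markers of border macrophages, which share many genes with microglia, was 358 to 688 in WT and 1156 to 1502 in NPC at 3 weeks, 430 to 585 and 1033 to 1219 at 6 weeks (Lyve1 at 0 in all NPC libraries) and 281 to 581 and 844 to 1493 at 9 weeks. The summed count of 8 microglial markers was lower in NPC at these ages, without overlap (1617800 to 1876010 in WT and 1039400 to 1311670 in NPC at 9 weeks). At 9 weeks the sums of 8 astrocyte markers (8410 to 9240 in WT, 9319 to 12584 in NPC), 8 oligodendrocyte markers (6726 to 7105 and 8409 to 17546; Cldn11 at 0 in both groups) and 7 B cell and plasmacytoid dendritic cell markers (562 to 819 and 1103 to 1115; Pax5 at 0 in both groups) did not overlap either. The part of these in the members' changes was not tested. In sorted bulk cells, more cells in an interferon-responding state and more RNA per cell cannot be told apart.

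**Figure D2:**
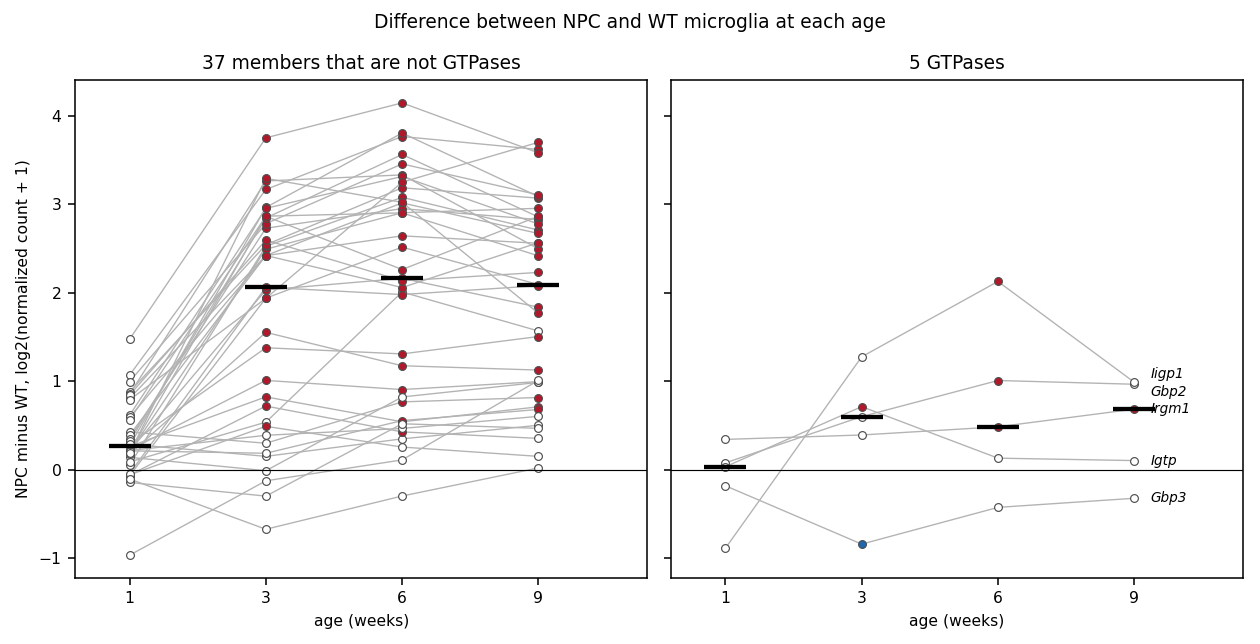
The NPC minus WT difference in log2(normalized count + 1) is plotted against age in weeks. Shown apart are the 5 guanylate-binding and immunity-related GTPases and the other 37 members, which include Mx1 and Mx2. Each point is a gene (filled red or blue where called higher or lower, open where not), lines join a gene across ages, and black bars are medians, which for the 37 were 0.26, 2.06, 2.16 and 2.09 at 1, 3, 6 and 9 weeks.

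Of the 9 members that sense nucleic acid or transmit the signal, 6, 8 and 7 were called higher at 3, 6 and 9 weeks. Irf7 was 209, 173, 279 and 229 in WT and 1179.6, 1346, 1280.5 and 1271 in NPC microglia at 3 weeks, and 456, 579, 291 and 207 against 2224, 2505 and 2265 at 9 weeks. The groups did not overlap at either age, and the changes were 2.53 ± 0.40 (SE; limma adjusted p = 3.9e-05) and 2.71 ± 0.43 (SE; limma adjusted p = 2.9e-05), with 3.08 at 6 weeks. Zbp1, which recognises Z-form nucleic acid and can start necroptosis, was 16.2, 91.4, 66.7 and 58.2 in WT and 333, 477, 400.5 and 313 in NPC microglia at 6 weeks. The Zbp1 changes were 2.49, 2.91 and 2.96 at 3, 6 and 9 weeks (limma adjusted p = 4.5e-04, 5.9e-05 and 1.1e-04). Ifi204, a DNA-binding protein of the PYHIN family, changed by 1.94, 2.52 and 2.09. The RNA helicases moved less: Dhx58 (LGP2) was called at each age with changes of 1.01, 0.91 and 1.00, Ifih1 (MDA5) was called at 6 and 9 weeks (0.77 and 0.82), and Ddx58 (RIG-I) had changes of 0.15, 0.35 and 0.50, none of them called. Without NPC 3w replicate C, which had 550 against 1213 to 1491 in the other 3 libraries for Ddx58 and 322 against 549 to 791 for Ifih1, the 3-week changes of Ddx58 and Ifih1 were 0.48 and 0.56 (limma adjusted p = 0.0544 and 0.063), and Ddx58 was called at 9 weeks (limma adjusted p = 0.0266). Of the ISGF3 members, Irf9 rose at 3 and 6 weeks (0.72 and 0.43) and Stat2 at 6 and 9 weeks (0.56 and 0.68). Trim30a, a TRIM protein that restrains Toll-like receptor signalling, rose at each age by 0.82, 0.54 and 0.71. The smaller of these calls depended on single libraries: at 6 weeks that of Stat2 was lost without WT 6w A or B or NPC 6w A or D, that of Irf9 without WT 6w A or NPC 6w A, B or C, and that of Ifih1 without WT 6w A or NPC 6w A or C, and at 9 weeks that of Stat2 without NPC 9w B and that of Ifih1 without WT 9w A or NPC 9w B or C.

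**Figure D3:**
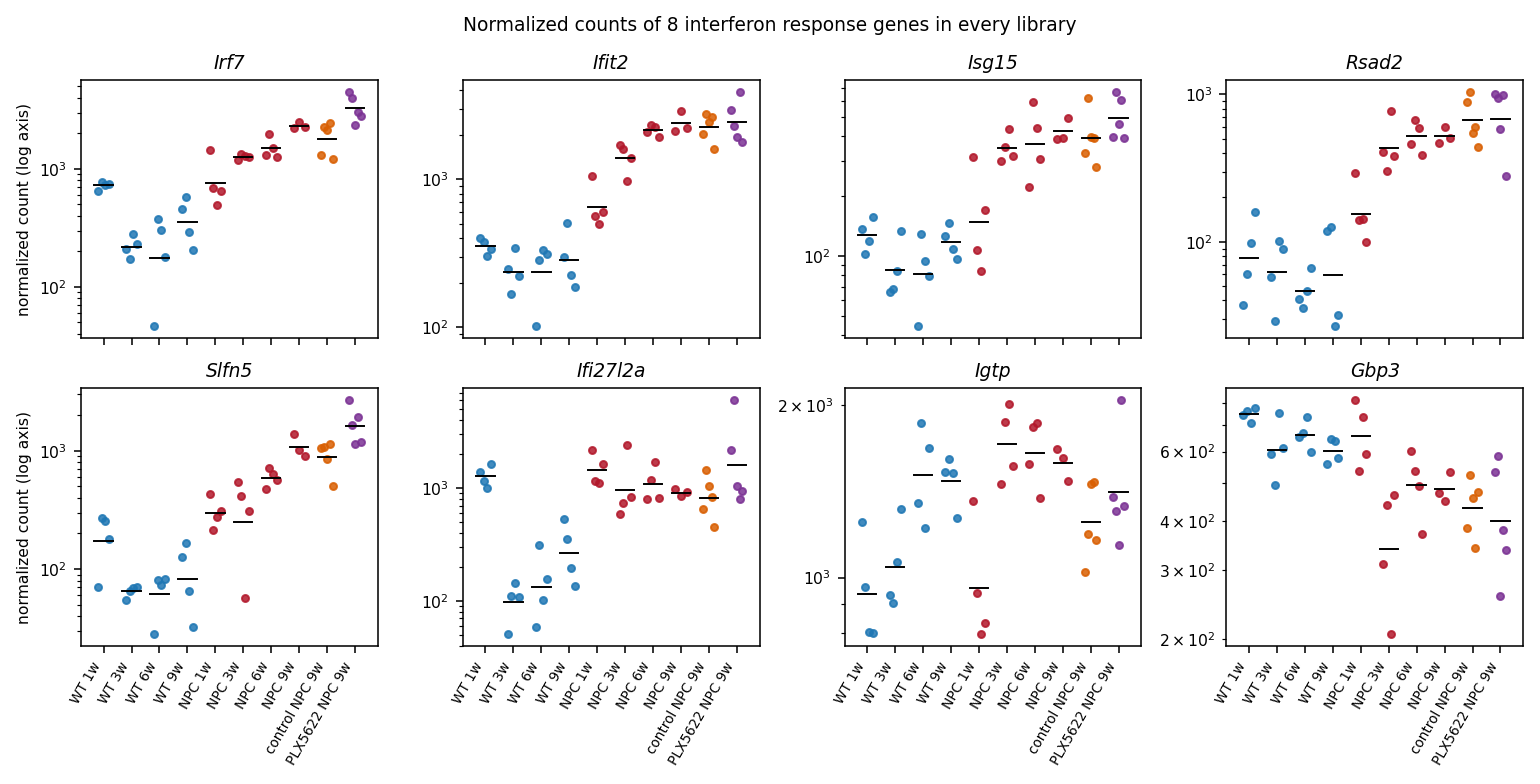
Normalized counts of 8 members on a log axis, 1 point per library, by group; black bars are group means on the log2(count + 1) scale. For Irf7, Ifit2, Isg15 and Rsad2 every NPC library from 3 weeks on lies above all 16 WT libraries, whereas Igtp overlaps between genotypes at 6 and 9 weeks and Gbp3 is lower in NPC at 3 weeks.

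Of the role groups, the IFIT, OAS and PKR genes had the highest median change, 2.96, 3.32 and 2.83 at 3, 6 and 9 weeks. All 3 IFIT genes and all 5 OAS and OAS-like genes were called higher at 3, 6 and 9 weeks. Ifit2 was 247, 169, 342 and 224 in WT and 1693, 1612, 979 and 1399.6 in NPC microglia at 3 weeks, a ratio of 5.83-fold (95% interval 3.77 to 9.01) with limma adjusted p = 7.7e-07. At 6 weeks it was 102, 283, 331 and 315 against 2069.9, 2329, 2255 and 1939, or 9.11-fold (95% interval 5.9 to 14.1) with limma adjusted p = 1.3e-08. Ifit1, which binds RNA lacking the host cap methylation, and its partner Ifit3 changed by 3.02 and 2.95 at 6 weeks. Oas3 was 5.41, 23.8, 4.44 and 6.47 in WT and 149, 159, 187 and 141 in NPC microglia at 6 weeks, with no overlap, and its changes of 3.75, 4.15 and 3.58 at 3, 6 and 9 weeks came from low WT counts. Oas2 changed by 3.17, 3.77 and 3.62 and Oas1a by 3.27, 3.33 and 2.499. Oasl1, known to hold back the translation of Irf7, changed by 2.97, 3.81 and 3.09, and Oasl2 by 2.96, 3.32 and 2.78. Eif2ak2, the kinase PKR that stops translation, was the member of this group that was not called at any age (-0.01, 0.82 and 0.99, with limma adjusted p = 0.111 at 6 weeks). At 3 weeks Eif2ak2 was 425, 535, 526 and 455 in WT and 808, 643, 134 and 757 in NPC microglia, so that 3 of 4 NPC libraries lay above all WT libraries and NPC 3w replicate C below them. Without that library the 3-week change was 0.60 (limma adjusted p = 0.0575), and Eif2ak2 was called at 6 and 9 weeks (limma adjusted p = 0.00279 and 8.4e-04), as it was at those ages by DESeq2 and with only the groups compared. WT 6w replicate A was the lowest WT library for many of these genes, for example 5.41 against 13.2, 71.8 and 32.3 for Oas2. Without it, Oas2 at 6 weeks changed by 3.18 (limma adjusted p = 0.00175).

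Among membrane and nucleotide effectors, Bst2, Ifitm3, Rsad2 and Cmpk2 were called higher at each of 3, 6 and 9 weeks and Mx1 and Mx2 at none. Rsad2 (viperin), which makes a chain-terminating nucleotide, was 57.9, 29.0, 101 and 89.2 in WT and 407, 301, 769.6 and 381 in NPC microglia at 3 weeks. The change was 2.78 ± 0.47 (SE; limma adjusted p = 1.0e-04), and its neighbour Cmpk2, a mitochondrial nucleotide kinase, changed by 2.85. At 6 weeks the changes of Rsad2 and Cmpk2 were 3.46 and 3.56. Ifitm3, which blocks viral fusion in endosomes, was 437, 430.4, 275 and 156 in WT and 1593, 1651 and 1574 in NPC microglia at 9 weeks, a change of 2.42 ± 0.43 (SE; limma adjusted p = 1.5e-04). Bst2 changed by 1.55, 1.18 and 1.13 at 3, 6 and 9 weeks. Mx1, a dynamin-like antiviral protein, was 263, 133, 5.2 and 181 in NPC microglia at 3 weeks, so that NPC 3w replicate C lay far below the other 3, and 67.2, 46.9, 42.6 and 62.4 in WT. At 9 weeks all 3 NPC libraries of Mx1 (320.2, 302 and 409) were above the 4 WT libraries (78.7, 145, 128 and 116), but the change of 1.57 had limma adjusted p = 0.165. The same library, NPC 3w replicate C, was also low for Mx2 (14.3 against 267, 215 and 228), Slfn8, Slfn5, Stat2, Ifih1, Ddx58, Eif2ak2, Herc6 and Parp14. For many other members it was the highest of the 4: Rsad2, Ifi27l2a, Zbp1, Irf9, Ifit3, Oas1a, Bst2, Ifitm3, Cmpk2, Isg15, Usp18, Ifi44, Ifi35, Xaf1, Rtp4, Slfn2 and Igtp. Rtp4 was 4178 against 1533 to 2171, and Slfn2 7388 against 2017 to 3126. The library also had the fewest genes with 3 or more reads, 12003, of all 41. The members named here as low in it had exon lengths of 3614 (Mx2) to 9306 bases (Parp14). Those in which it was highest had 463 (Ifi27l2a) to 6129 bases (Ifi44). The part of gene length or RNA quality in this split was not tested. Without NPC 3w replicate C, Mx1 was called at 3, 6 and 9 weeks (changes of 1.77, 2.01 and 1.57, limma adjusted p = 0.00873, 8.6e-04 and 0.012). The 3-week change of Mx2 then went from -0.13 to 0.86, not called.

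Isg15, a ubiquitin-like protein joined to other proteins during the response, was 66.2, 68.2, 84.2 and 134 in WT and 303, 355, 435 and 317 in NPC microglia at 3 weeks and 127, 147, 108 and 96.2 against 390.3, 393 and 498 at 9 weeks. The groups did not overlap and the changes were 2.03 ± 0.34 (SE; limma adjusted p = 1.0e-04) and 1.84 ± 0.37 (SE; limma adjusted p = 5.9e-04). Usp18, which removes Isg15 and dampens signalling at the type I receptor, changed by 2.42, 2.65 and 2.56 at 3, 6 and 9 weeks. Herc6, the mouse ligase for Isg15, changed by 0.39, 0.47 and 0.60 and was not called. Without NPC 3w replicate C (317, against 724 to 827 in the other 3) its 3-week change was 0.72, and it was called at 3 and 9 weeks (limma adjusted p = 0.025 and 0.0391), as it was with array weights.

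Of the 10 remaining genes, 7 were called higher at all of 3, 6 and 9 weeks: Ifi44, Ifi27l2a, Xaf1, Rtp4, Sp100, Slfn2 and Slfn5. Sp100, a component of nuclear bodies, was 131, 269, 362 and 325 in WT and 1048, 1312, 1170.2 and 977 in NPC microglia at 6 weeks, a change of 2.14 ± 0.29 (SE; limma adjusted p = 3.5e-06). Slfn5, a schlafen protein, was 127, 166, 65.5 and 32.6 in WT and 1385, 1014 and 900.1 in NPC microglia at 9 weeks. Its changes were 1.94, 3.25 and 3.70 at 3, 6 and 9 weeks, and the first of these rested on 3 high libraries and NPC 3w replicate C at 57.2. Ifi44, Rtp4 and Xaf1 changed by 2.06, 2.26 and 1.31 at 6 weeks, and Slfn2 by 1.98. Ifi35 was called at 3 weeks (0.49, limma adjusted p = 0.042), a call lost without WT 3w A, B or C or NPC 3w C, and had changes of 0.26 and 0.15 later. Parp14, a mono-ADP-ribosyltransferase, changed by -0.30, 0.52 and 0.47 and Slfn8 by -0.67, -0.30 and 0.02, none of them called. Their 3-week values turned on NPC 3w replicate C, at 218 for Parp14 against 766 to 1016 in the other 3 NPC libraries and at 261 for Slfn8 against 1567 to 1710. Without it the 3-week change was 0.20 for Parp14 and -0.0084 for Slfn8, and Parp14 was called higher at 6 weeks (limma adjusted p = 0.027).

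At 3 weeks 1 of 5 was called higher and 1 lower, at 6 weeks 3 were called higher, and at 9 weeks 1, beside 14.3% higher and 12.6% lower of all genes at 3 weeks and 8.76% and 11.2% higher at 6 and 9 weeks. A count of 1 in 5 is not set apart from these shares. Their medians were 0.60, 0.49 and 0.69 at 3, 6 and 9 weeks, beside 2.06, 2.16 and 2.09 for the other 37, and the difference between the 2 sets was not tested. Igtp, an immunity-related GTPase of vacuole and lipid droplet membranes, was 934, 902, 1065 and 1317 in WT and 1455, 1870.0, 2009.8 and 1565 in NPC microglia at 3 weeks, without overlap, and rose by 0.71 ± 0.17 (SE; limma adjusted p = 0.00393). At 9 weeks the Igtp libraries were 1529, 1608, 1521 and 1272 in WT and 1679, 1617 and 1473 in NPC, and the change was 0.10, with a 95% interval of -0.28 to 0.49. Gbp3, a guanylate-binding protein, was 592, 494, 751 and 614 in WT and 311, 438, 205 and 466 in NPC microglia at 3 weeks. All 4 NPC libraries were below all 4 WT libraries, and Gbp3 fell by 0.84 on the log2 scale (limma adjusted p = 0.00248), a call not kept when only these 2 groups were in the fit (limma adjusted p = 0.106). Irgm1, which restrains the other immunity-related GTPases, rose at 6 and 9 weeks by 0.49 and 0.69 (limma adjusted p = 0.0307 and 0.00372). Iigp1, another immunity-related GTPase, was 3.25, 76.8, 15.6 and 47.4 in WT and 102, 158, 87.5 and 66.4 in NPC microglia at 6 weeks, a change of 2.13 ± 0.70 (SE; limma adjusted p = 0.0362). Gbp2 changed by 0.60, 1.01 and 0.97 and was called at 6 weeks only (limma adjusted p = 0.0431). At 6 weeks the calls of Gbp2, Iigp1 and Irgm1 were each lost without WT 6w A, NPC 6w B or NPC 6w C, those of Gbp2 and Iigp1 without WT 6w C or NPC 6w A, and those of Gbp2 and Irgm1 without WT 6w D; edgeR called neither Gbp2 nor Iigp1. Astrocyte markers were highest in NPC 6w B and C among the untreated libraries, and their part in these calls was not tested.

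Of 16 further GTPases of the same families, 13 passed the filter on low values and were tested, and 7 were called higher and 1 lower at 3 weeks, 6 higher at 6 weeks and 5 higher at 9 weeks, beside the 14.3%, 8.76% and 11.2% of all genes called higher at these ages. Gbp4, Gbp6, Gbp10, Gm12250 and Ifi47 were higher at all of 3, 6 and 9 weeks. Gbp4 was 14.1, 64.9, 51.1 and 9.7 in WT and 306, 117, 195 and 168 in NPC microglia at 6 weeks, a change of 2.77 ± 0.52 (SE; limma adjusted p = 3.0e-04). Gbp6 and Gbp10 changed by 2.93 and 3.73 at that age, from WT counts that stayed at or under 38.9 and 9.36. Tgtp2 was higher at 3 and 6 weeks (2.25 and 2.21), Irgm2 at 3 weeks (0.68), and Gbp7 was lower at 3 weeks (-1.20). Some of these calls were lost without a single library: Gm12250 at 3 weeks (WT 3w A, B or D or NPC 3w B or D) and 6 weeks (WT 6w A or NPC 6w C), Irgm2 (WT 3w A or B or NPC 3w B or C), Gbp7 (WT 3w A or C or NPC 3w C), Gbp4 at 9 weeks (WT 9w C or D or NPC 9w A, B or C) and Ifi47 at 9 weeks (WT 9w A, B or D or NPC 9w A, B or C). Gbp10 at 3 weeks and Gm12250 at 9 weeks were close to the threshold (limma adjusted p = 0.0462 and 0.0497) and were lost without most single libraries of their comparison. Several of these genes lie in clusters of near-identical copies, so their counts are uncertain.

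From 1 to 3 weeks most members called in WT microglia were called lower and most called in NPC microglia higher. In WT microglia 3 members were called higher at 3 weeks than at 1 week and 15 lower, beside 15.7% and 18.4% of all genes. In NPC microglia 17 were called higher and 1, Gbp3, lower, beside 12.2% and 12.8%. The WT count was 11 without WT 3w A or WT 3w B, and the NPC count was 11 without NPC 1w C. Irf7 fell in WT from 655, 779, 735 and 750.3 at 1 week to 209, 173, 279 and 229 at 3 weeks, without overlap, a change of -1.73 ± 0.40 (SE; limma adjusted p = 0.00121). In NPC microglia it went from 1459, 691, 495 and 655 to 1179.6, 1346, 1280.5 and 1271, with a change of 0.75 ± 0.40 (SE; limma adjusted p = 0.177). Ifi27l2a, a small mitochondrial protein, fell the most in WT, from 1401, 1167, 1012 and 1624 to 50.7, 111, 146 and 109, a change of -3.70 ± 0.45 (SE; limma adjusted p = 1.9e-07). In NPC microglia it was 2162, 1149.6, 1115 and 1631 at 1 week and 586, 739, 2393 and 832 at 3 weeks, and the change of -0.60 was not called, so that the genotype difference in Ifi27l2a at 3 weeks came with a low WT level. Ifitm3, Bst2, Slfn2, Rtp4, Oas1a, Oas2, Oasl1 and Oasl2 also fell in WT, by changes of -1.69, -1.27, -1.24, -1.31, -2.07, -2.55, -1.52 and -1.45. In NPC microglia Ifit3, Usp18, Ifi44, Ifit1, Ifit2, Irf9 and Igtp rose by 1.76, 1.30, 1.26, 1.19, 1.10, 0.85 and 0.83. Irgm1 rose in both, by 0.66 in WT and 0.71 in NPC, the latter not called with only these groups in the fit (limma adjusted p = 0.0563).

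The age change itself differed between the genotypes for 15 of the 42 members, all higher in NPC and none a GTPase, where 0.861% of all genes were called in this direction and 0.199% in the other. The difference between the changes was 3.11 ± 0.63 (SE; limma adjusted p = 0.0125) for Ifi27l2a, 2.67 ± 0.57 (SE; limma adjusted p = 0.0158) for Ifitm3, 2.47 ± 0.56 (SE; limma adjusted p = 0.0254) for Irf7 and 1.38 ± 0.29 (SE; limma adjusted p = 0.015) for Bst2. For Ifit3 and Ifit1, RNA-binding antiviral proteins, it was 2.38 and 2.03. The other 9 were Oasl1, Cmpk2, Oasl2, Rtp4, Slfn2, Usp18, Sp100, Ifi44 and Irf9, with differences from 0.78 to 2.69. This count depended on single libraries: it was 3 without NPC 1w C, 5 without WT 3w A, 5 without WT 3w B, 6 without NPC 1w B, 7 without WT 1w D and 8 without NPC 3w B. Slfn2, Ifi27l2a and Bst2 were called under every alternative run. Markers of border macrophages also fell with age: their summed count was 4409 to 9133 in WT at 1 week and 358 to 688 at 3 weeks, and 7303 to 8384 and 1156 to 1502 in NPC. The part of these cells in the age changes of the members was not tested.

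**Figure D4:**
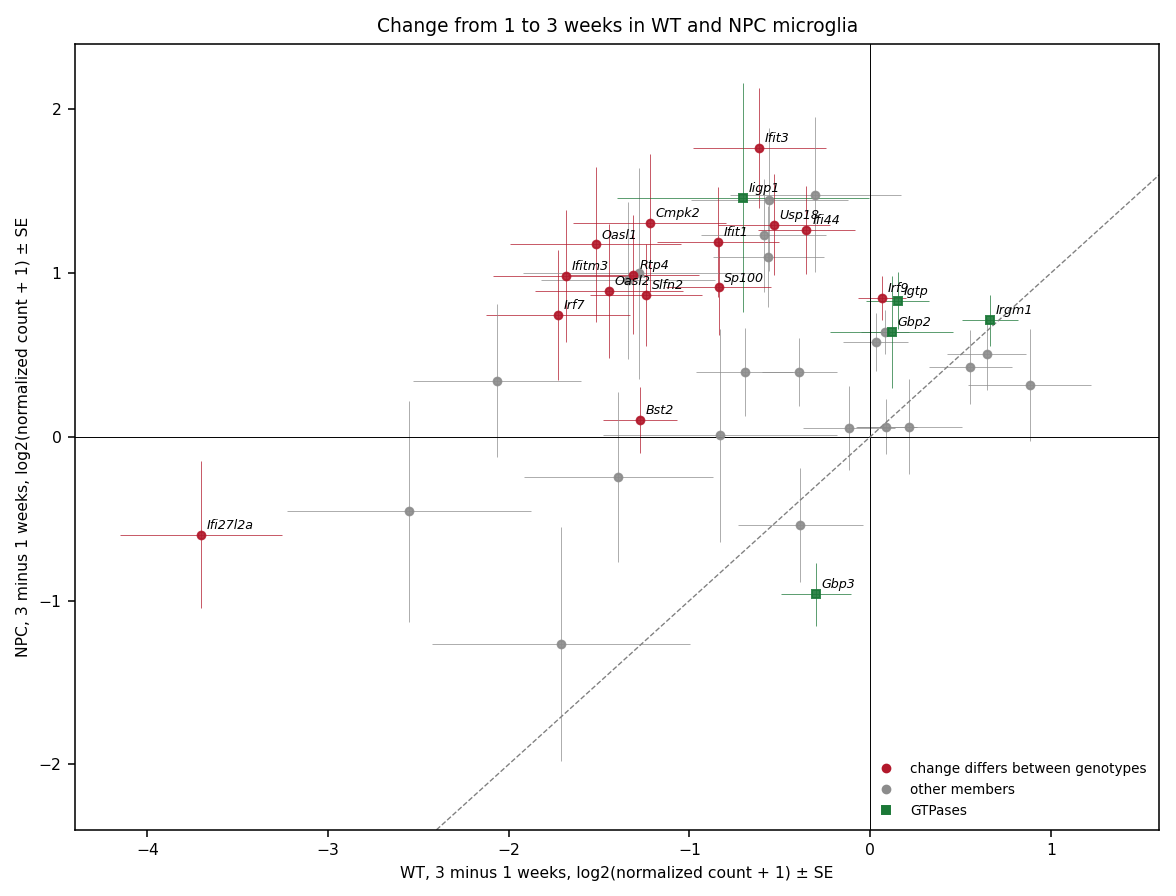
Change from 1 to 3 weeks in WT (horizontal) and NPC microglia (vertical) for the 42 members, in log2(normalized count + 1) with standard errors; the dashed line marks equal change. The 15 named red points, whose change differed between genotypes, lie above the line, with Ifi27l2a at -3.70 in WT the farthest left.

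After 3 weeks no member was called between successive ages in either genotype. Limma called 0 members for 6 against 3 weeks and for 9 against 6 weeks in WT (0.057% and 0.00712% of all genes called). In NPC it also called 0 members for these ages (0.228% and 0.37% of all genes called). In the same order, 2, 4, 4 and 2 members had unadjusted limma p under 0.05, beside 1363, 1646, 1503 and 1552 of all 14046 genes. edgeR and DESeq2 called 0 members in each of these 4 comparisons. Neither was a change of the genotype difference called for any member from 3 to 6 weeks or from 6 to 9 weeks. Limma called 0 genes of the whole table in these 2 comparisons, and edgeR and DESeq2 called 0 members. Unadjusted limma p was under 0.05 for 1 and 0 members, beside 1237 and 628 of all 14046 genes. With 3 or 4 libraries a group this leaves wide intervals: the NPC change of Irf7 from 6 to 9 weeks was 0.64, with a 95% interval of -0.24 to 1.52, and that of Slfn5 was 0.87, with an interval of -0.28 to 2.02.

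RNA of the ligands was nearly absent from the libraries of the sorted cells, and interferon protein was not measured. Ifnb1, which encodes interferon-beta, was 12.6, 1.07, 1.3 and 11.5 in NPC microglia at 3 weeks and 17.5, 0, 19.2 and 4.88 at 6 weeks. It was 0 in all 12 WT libraries of 3 to 9 weeks, in the 3 untreated NPC libraries at 9 weeks and in the 5 PLX5622 libraries, and 0, 7.51, 9.75, 0.876 and 1.86 in the NPC controls of that arm. The calls for Ifnb1 at 3 and 6 weeks (limma adjusted p = 0.0277 and 0.0169) rest on these few reads, were not made by DESeq2, and at 6 weeks ended without NPC 6w A or C and at 3 weeks without WT 3w A, B or C or NPC 3w A or D. At 1 week the WT libraries held 6.18, 5.52, 0 and 2.1 and the NPC libraries 0. Ifng, the type II interferon, did not exceed 1.32 in any library. Of the 19 ligand genes in the table Ifnb1 alone passed the filter on low values.

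The comparison between genotypes was also made for 15 receptors, kinases and transcription factors of the pathway. Irf1, the factor most tied to interferon-gamma, was called at 3 weeks only (0.47), and Nlrc5, a regulator of class I antigen presentation genes, at all 3 ages (1.55, 1.81 and 1.95). The Nlrc5 calls were lost without 1 of 6 libraries at 3 weeks (WT 3w B, C or D, NPC 3w A, B or D), 1 of 4 at 6 weeks (WT 6w A or B, NPC 6w A or B) and 1 of 3 at 9 weeks (WT 9w D, NPC 9w A or B). Ifnar1 and Ifnar2 were not called (-0.02 and -0.07 at 6 weeks), while Ifngr1 was lower at 6 and 9 weeks (-0.89 and -0.72). Irf5 was lower at each age (-0.47, -0.54 and -0.32), the last of these lost without WT 9w A or D or NPC 9w A, B or C.

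Some sensors upstream of interferon were lower in NPC microglia, though the share of the pathway lists called lower was near that of all genes at 3 weeks. Tmem173, which encodes STING, the adaptor that carries the signal of cytosolic DNA, was 25457, 24577, 27802 and 25459 in WT and 8946, 9630.3 and 9159.9 in NPC microglia at 9 weeks. It was lower at every age, by changes of -0.65, -0.62, -1.09 and -1.48 at 1, 3, 6 and 9 weeks (limma adjusted p = 0.0177, 0.00312, 3.2e-06 and 5.0e-08); the 1-week call was lost without WT 1w A or NPC 1w B, C or D. Mb21d1, the cGAS sensor that makes the messenger for STING, was lower at 3 weeks (-1.07), and Tlr3, the endosomal sensor of double-stranded RNA, at 3, 6 and 9 weeks (-0.59, -0.51 and -0.76). The Tlr3 calls were lost without NPC 3w C at 3 weeks, without NPC 9w C at 9 weeks, and without any of 7 libraries at 6 weeks (all but NPC 6w A). Ikbke, a kinase that activates Irf3 and Irf7, was higher at 6 and 9 weeks (3.63 and 3.83). Of 10 genes that restrain the response, Rnaseh2b, a subunit of the enzyme that removes ribonucleotides from DNA, was higher at 3, 6 and 9 weeks (0.77, 0.57 and 1.29) and the RNA editor Adar at 6 and 9 weeks (0.54 and 0.66). The call of Rnaseh2b at 6 weeks was lost without WT 6w A, B or C or NPC 6w A, C or D. In all, of 38 tested genes of these lists 7 were higher and 6 lower at 3 weeks, 6 and 5 at 6 weeks, and 5 and 5 at 9 weeks, beside 14.3% and 12.6%, 8.76% and 6.5%, and 11.2% and 7.77% of all genes.

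Chemokine genes induced by interferon were higher as well. Cxcl10, which attracts T cells, was 38.3, 34.1, 82.2 and 46.0 in WT and 632, 366, 372 and 429.5 in NPC microglia at 3 weeks, a change of 3.19 ± 0.44 (SE; limma adjusted p = 5.6e-06). Of 5 such genes, Cxcl10, Cxcl11, Ccl5 and Ccl12 were called higher at 3, 6 and 9 weeks and Cxcl9 at 6 weeks. Of all genes, 14.3%, 8.76% and 11.2% were called higher at 3, 6 and 9 weeks. The call of Ccl5 at 9 weeks was lost without WT 9w D or NPC 9w A or C, and that of Cxcl9 without WT 6w A, C or D or NPC 6w A, B or C. T and NK cell markers summed to 42.4 normalized counts or less in every untreated and control library and to 33.4 to 246 in the 5 PLX5622 libraries.

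The NPC mice of the PLX5622 arm form a further set of libraries at 9 weeks. In their controls no member differed from the untreated NPC mice at 9 weeks (limma; 0 of 14312 genes and 0% of all genes called, 0 members at unadjusted p under 0.05, and 0 members by edgeR and DESeq2). Against WT at 9 weeks 29 members were called higher and 0 lower in the controls, beside 11.6% and 10.4% of all genes, and 33 were called higher and 1 lower with PLX5622, beside 16.6% and 15.6%. These comparisons share the WT libraries with the untreated one. The median change of the GTPases against WT was 0.69 in the untreated NPC mice, -0.18 in the controls and 0.29 with PLX5622. For the other members it was 2.09, 1.94 and 2.52. Per library, the GTPase medians were 0.55 to 0.80 in untreated NPC mice and -0.25 to 0.54 in the controls, without overlap. The difference of these medians was not tested. The member called lower with PLX5622 was the GTPase Gbp3 (-0.59). That call was lost without WT 9w B or C or PLX5622 replicate 3 or 5. Slfn5 was 3.42 above WT in the controls and 4.29 with PLX5622, Oas3 3.36 and 4.57, and Ifit2 2.98 and 3.11.

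PLX5622 against control gave 0 called members by limma, where 0.947% of all genes tested were called. Unadjusted limma p was under 0.05 for 11 members, all higher with PLX5622, beside 1931 of all 12877 genes. Of the members, edgeR called 0 and DESeq2 7 (Ifi204, Ifitm3, Irf7, Slfn2, Slfn5, Sp100 and Zbp1), where DESeq2 called 606 of all genes. The changes of the 42 members were positive for 38, with a median of 0.24, beside 0.01 over all genes. Ifitm3 was 1083, 2108, 1517, 1752 and 687 in the 5 control libraries and 2576, 3868, 2188, 3307 and 2123 in the 5 PLX5622 libraries, without overlap. Its change was 1.04 ± 0.27 (SE; limma adjusted p = 0.0967). Slfn5 was 1050.3, 1077, 851, 1132 and 505 in the controls and 2675, 1644, 1150.2, 1912 and 1190.5 with PLX5622, with a change of 0.88 ± 0.26 (SE; limma adjusted p = 0.14). Irf7 was 1312, 2278, 2135, 2434 and 1207 in the controls and 4491, 3976, 2368, 3044 and 2833 with PLX5622, where the groups overlapped by 1 library, and its change was 0.86 ± 0.23 (SE; limma adjusted p = 0.0972). The median of the 5 GTPases was 0.01, and Gbp2 had the lowest value of all members, -0.39, with a 95% interval of -0.78 to 0.00. With the replicate number as a paired block 7 members were called (Ifi204, Ifitm3, Oas3, Oasl1, Slfn2, Slfn5 and Sp100), beside 416 of all genes. The numbers were not shown to pair the mice. Leaving out PLX5622 replicate 5 gave 1 called member, Slfn2. Markers of monocytes and neutrophils, 9 genes of which 8 were in the table, summed to 325 to 5165 in the controls and 642 to 98264 with PLX5622, where replicate 3 was highest. Other lists separated the groups fully: border macrophage markers summed to 890 to 1163 in the controls and 1226 to 2834 with PLX5622, where Lyve1 was at 0, and T and NK cell markers to 4.69 to 28.9 and 33.4 to 246, with Ncr1 and Klrb1c at 0 in both groups, Gzma at 0 in the controls and Cd8a and Gzmb at 0 with PLX5622. The part of these cells in the values was not tested. Among the chemokines, Cxcl11 was called lower with PLX5622 (-3.21, limma adjusted p = 0.0494), a call lost without any of 9 single libraries (all but PLX5622 replicate 5).

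**Figure D5:**
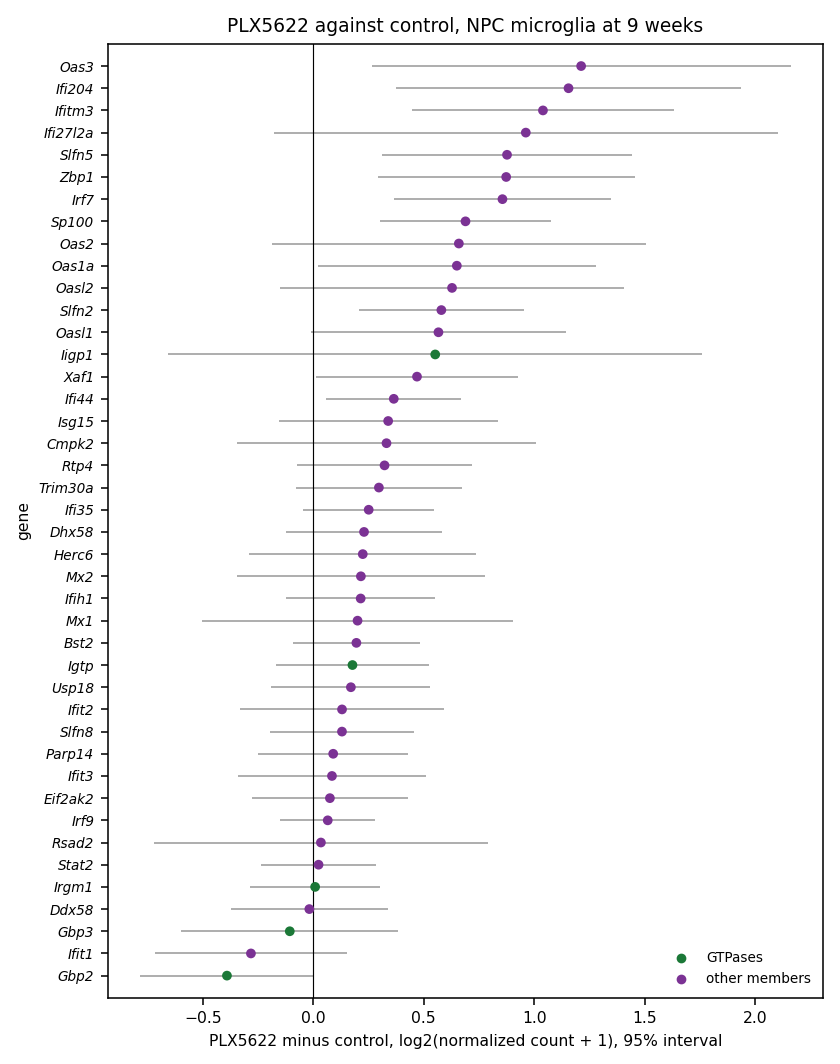
PLX5622 minus control in log2(normalized count + 1) with 95% intervals for the 42 members in NPC microglia at 9 weeks, 5 libraries a group, sorted by value. Most points lie right of 0, from -0.39 for Gbp2 to 1.21 for Oas3, and no interval is corrected for the number of genes.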

How the data were processed

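Poly(A) RNA of CD11b+Tmem119+ cells was amplified with SMART-seq v4 and sequenced as paired reads, per the labels' protocols. STAR 2.5.1b, FastQC 0.11.4, DESeq2 and the mm9 build are named in the submitters' processing notes; the annotation, counting tool and use of strand are not given in the sources used here. The values are normalized counts as deposited, a signal that the authors scaled with 1 size factor per library. In all 41 columns the values were whole multiples of 1 step (100% of values within 1e-06), so reads were recovered for edgeR and DESeq2: 23159093 to 40509603 per library. Limma (3.58.1) was run on log2(value + 1) with trend and robust options, for genes with at least 10 normalized counts in 3 libraries: 31 untreated libraries (14046 genes), the 10 libraries of the PLX5622 arm (12877 genes), or all 41 (14312 genes), with no covariate. The design names limma as the test of these normalized values, and edgeR (4.0.16) and DESeq2 (1.42.0) are alternatives. The limma fit was tested on simulated counts. The members, the lists of other genes and the tests were chosen with earlier results of these data known. Any member or listed pathway gene could be named, and 1 listed pathway gene is not reported here. At 1 week same-lettered WT and NPC libraries were weakly correlated (0.11 to 0.16, each pair best with its own letter). The labels do not say what a letter marks, so pairing of the mice is not known. A fit with the letter as a block called 0 members at 1 week, as without the block. Promoters came from RefSeq tables, 11 members having no entry. No library was left out, and no 2 libraries held the same values (highest Pearson r across genes 0.984).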

Additional observations from a re-analysis of the deposited data

Results flagged for a closer look

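In 18 sets of libraries tested for a value standing apart (the median of the 37 members or of the 5 GTPases, in the 9 groups of 4 or 5 libraries), 2 were found, where chance gives about 1 in 20. The median of the 37 members was 1.64 above the WT mean on the log2 scale in NPC 1w replicate A, with the other 3 NPC libraries of that age at 0.58 to 0.74. The median of the GTPases was -0.079 in WT 9w replicate D, below the other 3 of its group. For single members, 26 of 378 sets of libraries had such a value, and 8 of these were NPC 1w replicate A. The change from 1 to 3 weeks differed between NPC and WT mice, by limma's test of the difference, for Ifi27l2a (3.11), Oasl1 (2.69), Ifitm3 (2.67), Cmpk2 (2.53), Irf7 (2.47), Ifit3 (2.38), Oasl2 (2.34), Rtp4 (2.30), Slfn2 (2.11), Ifit1 (2.03), Usp18 (1.83), Sp100 (1.75), Ifi44 (1.61), Bst2 (1.38) and Irf9 (0.78), all on the log2 scale.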

How the results depend on the processing

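No call of a member changed direction under any alternative. The counts of members called in NPC against WT were 26 to 39 at 3 weeks, 25 to 36 at 6 weeks and 27 to 36 at 9 weeks over all alternatives. At 1 week the count was 1 with only the groups compared in the fit (Oas1a), beside 234 of 12836 genes. It was also 1 with DESeq2 (Ifi44), beside 372 of 14046 genes. For the age changes with array weights, WT 6 against 3 weeks gave 1 and WT 9 against 6 weeks gave 2, beside 1427 and 1479 of all 14046 genes. NPC 3 against 1 weeks gave 11 with only the groups compared, beside 1459 of 12701 genes. The counts with 1 library left out were 11 to 21 in WT (3 against 1 weeks), 11 to 23 in NPC, and 3 to 18 for the difference between the genotypes. PLX5622 against control gave 1 with array weights (Slfn2), 7 with DESeq2 and 7 with a replicate block, beside 435, 606 and 416 of all 12877 genes. The count was 0 to 1 with 1 library left out, and 0 in a fit of all 41 libraries, chosen after seeing the data. The replicate block changed no other count by over 1.5 times; at 3, 6 and 9 weeks and in the PLX5622 arm not every pair of same-numbered libraries correlated above 0.1, so the numbers are no shown pairing. At 6 weeks, without both NPC 6w B and C, 25 members were called. Low WT counts limit the fold changes of Oas3, Gbp6 and Gbp10. The cause of each difference was not tested.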
